A study of Mus musculus with 8 samples.

Results

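The data describe the baseline transcriptome of E12.5 mouse molar tooth germs that received only DMSO, the solvent of the inhibitors used elsewhere in the series. It is held by 2 of the 8 samples, chosen by their labelled age (E12.5) and treatment (DMSO). The germs were dissected from BRE-GFP embryos, whose cells switch on green fluorescent protein where BMP-Smad signalling is active, and were kept for 1 day in culture in DMEM with 10% FBS and GlutaMAX. The reporter and the culture are common to all 8 samples, and the other groups are E12.5 germs with SB431542, E12.5 germs with SIS3 and E13.5 germs with DMSO. The sources used here give neither the number of germs or embryos pooled nor whether each sample was a culture of its own. RNA-seq libraries were made from total RNA with the SMARTer Universal Low Input RNA Kit, a method for small amounts of RNA. The question is descriptive: which transcription factors, ligands, receptors and matrix genes the germ expressed most, and which cell types its RNA came from. No group was tested against another.

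At this stage a molar is a bud of oral epithelium that grows into mesenchyme derived from the cranial neural crest. The tooth-forming instruction passes from the epithelium to this dental mesenchyme, where Msx1 and Pax9, both homeodomain or paired-box transcription factors, maintain expression of Bmp4, a BMP ligand that signals back to the epithelium. Inhba encodes the subunit of activin A, a further mesenchymal signal of the early molar, and Runx2 is a transcription factor needed both for tooth morphogenesis and for bone. The enamel knot, an epithelial signalling centre marked by Shh, Fgf4 and Cdkn1a, appears as the bud turns into a cap.

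The 2 deposited columns held 15487375 and 15487635 counts, totals that differ by 0.00168%. Over 1027 genes with a single annotated transcript and little sequence shared with other genes, their mean squared difference was 1.01 times (SE 0.0475) that of dividing 1 set of reads at random. The same ratio was 0.993 for the 2 SB431542 columns and 1.01 for the 2 E13.5 columns, whose totals also nearly coincide, and 17.3 for the 2 SIS3 columns, whose totals differ by 44.5%. Without the limit on shared sequence the E12.5 DMSO ratio was 2.19 for genes with 1 transcript, 3.15 for genes with 2 to 6 and 4.52 for genes with 7 or more. The 2 columns thus differed by about the sampling noise only over genes with 1 transcript and little shared sequence, and on that ground they were summed and counted as 1 sample of 30975010 counts. Every interval below is a 95% interval for counting error only, since with 1 library there is no measure of the spread between germs. Levels are given as CPM, counts scaled to this total, and where genes are set against each other they are CPM per kilobase (kb) of the longest protein-coding transcript. Of 21718 protein-coding genes, 14047 (64.7%) reached 1 CPM, and 5236 had 3 counts or fewer, where 3 counts stand for 0.0969 CPM. Protein-coding genes took 98.2% of the counts.

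The 5 genes that mark early dental mesenchyme were all expressed, and Msx1 was the highest. Msx1 (ENSMUSG00000048450, GRCm38 chromosome 5, 37820485 to 37824583, minus strand) stood at 242 and 246 CPM per kb in the 2 columns and at 244 CPM per kb in their sum (interval 240 to 248, 14610 counts). This placed it above 99.2% of protein-coding genes. Pax9 (chromosome 12, 56691767 to 56712822) followed with 86.9 and 84.8 CPM per kb, and Runx2 (chromosome 17, 44495987 to 44814797) with 53.8 and 53.9 CPM per kb. Bmp4 (chromosome 14, 46383520 to 46390669) stood at 38.1 and 40.1 CPM per kb, and Inhba (chromosome 13, 16011851 to 16031621) at 23.0 and 23.7 CPM per kb. The counting intervals of these levels do not overlap. Msx1 was 2.84 times as high as Pax9 and 10.4 times as high as Inhba per kb. Both the sizes and the order depend on the transcript length: with the median length of each gene's transcripts Runx2 came to 194 CPM per kb and passed Pax9 at 86.5 CPM per kb, and Msx1 was only 1.25 times Runx2 and 6.47 times Inhba.

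All 22 genes of the dental mesenchyme list reached 1 CPM, against 64.7% of protein-coding genes. Their median level was 40.9 CPM per kb, against 2.55 CPM per kb over all protein-coding genes. The list was chosen with earlier results of these data known, so both contrasts describe its members and are not a test. Next to Msx1 stood Prrx1, a homeobox gene of limb and facial mesenchyme, at 225 and 228 CPM per kb, and Barx1, a homeobox gene of the molar-forming part of the jaws, at 205 and 207 CPM per kb. Twist1, a basic helix-loop-helix factor of neural crest mesenchyme, stood at 121 CPM per kb and Osr2, which restricts the tooth field to a single row, at 117 CPM per kb. The LIM homeobox genes Lhx8 and Lhx6, which act together in early molar mesenchyme, stood at 99.4 and 76.1 CPM per kb. Of the 22 genes, 17 reached 10 CPM per kb, against 6578 of all 21718 protein-coding genes (30.3%), and a small group was low. In that low group Fgf3, an FGF of later molar mesenchyme, had 86 and 54 counts in the 2 columns (1.97 CPM per kb), and Msx2, the sister gene of Msx1, had 42 and 33 counts (0.987 CPM per kb). Sp6, known mainly from dental epithelium, was lowest at 16 and 19 counts (0.312 CPM per kb). Msx1 was 247 times as high as Msx2 per kb (interval 197 to 314). Fgf10, another mesenchymal FGF, stood at 10.5 CPM per kb. In the 22 genes the columns differed by more than 3 standard deviations of sampling for 2, Dlx1 (29.7 and 26.0 CPM per kb) and Wnt5a (29.2 and 25.7 CPM per kb). Of all 14047 protein-coding genes at or above 1 CPM, 1170 (8.33%) differed by as much.

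**Figure D1:**
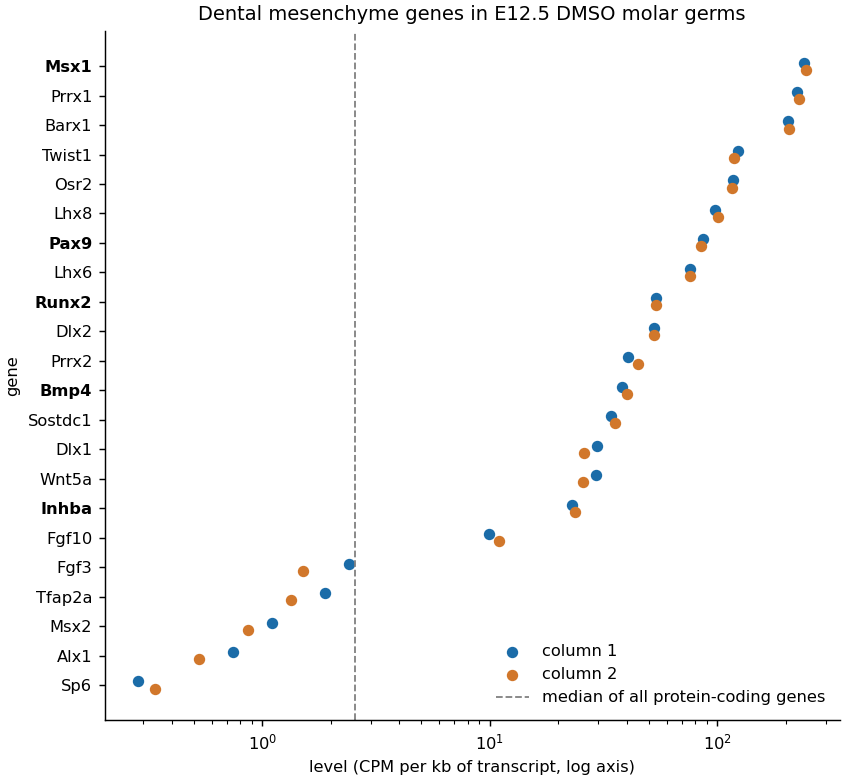
Level of each of the 22 dental mesenchyme genes in the 2 deposited columns, in CPM per kb of transcript on a log axis, with the 5 chosen markers in bold. Msx1, Prrx1 and Barx1 lie above 200 CPM per kb in both columns, and 5 genes, Fgf3, Tfap2a, Msx2, Alx1 and Sp6, lie left of the dashed line at 2.55 CPM per kb, the median of all protein-coding genes.

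The promoters of 4 genes among the 10 highest of their role are shown because they represent the CpG-rich and the TATA-containing type, which are compared over all genes further on. Each run is the 250 bases before the RefSeq start of the gene on GRCm38, 5′ to 3′ on the gene's strand. Capitals mark every CG in Msx1 (chr5:37824586-37824835, minus strand) and Twist1 (chr12:33957421-33957670, plus strand), and the TATAAA element in the immediate-early gene Fos (chr12:85473640-85473889, plus strand) and the matrix gene Postn (chr3:54360857-54361106, plus strand).
Msx1: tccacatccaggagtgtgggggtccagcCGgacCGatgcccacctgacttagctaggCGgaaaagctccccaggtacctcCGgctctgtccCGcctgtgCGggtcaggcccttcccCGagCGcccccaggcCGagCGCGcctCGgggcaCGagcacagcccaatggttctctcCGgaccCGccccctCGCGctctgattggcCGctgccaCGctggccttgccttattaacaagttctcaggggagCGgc
Twist1: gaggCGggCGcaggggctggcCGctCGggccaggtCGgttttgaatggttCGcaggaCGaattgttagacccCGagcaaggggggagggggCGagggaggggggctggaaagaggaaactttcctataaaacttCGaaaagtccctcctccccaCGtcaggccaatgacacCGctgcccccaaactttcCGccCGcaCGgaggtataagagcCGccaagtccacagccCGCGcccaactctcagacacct
Fos: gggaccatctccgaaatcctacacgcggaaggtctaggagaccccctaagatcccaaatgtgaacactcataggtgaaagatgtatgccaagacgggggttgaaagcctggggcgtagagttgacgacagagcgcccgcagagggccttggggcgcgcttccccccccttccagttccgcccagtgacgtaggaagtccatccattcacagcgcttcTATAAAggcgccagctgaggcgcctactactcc
Postn: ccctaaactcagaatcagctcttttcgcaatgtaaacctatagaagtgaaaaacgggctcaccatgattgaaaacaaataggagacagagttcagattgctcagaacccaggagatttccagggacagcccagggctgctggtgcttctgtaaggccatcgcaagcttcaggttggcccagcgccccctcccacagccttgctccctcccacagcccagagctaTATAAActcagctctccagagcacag
The Msx1 and Twist1 windows hold 20 and 18 CG pairs and no TATAAA between 40 and 20 bases before the start. Fos holds 15 CG pairs as well as the TATAAA element, whereas Postn holds 4 CG pairs.

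Of 720 listed transcription factors 488 (67.8%) reached 1 CPM, near the 64.7% of all protein-coding genes. Together the 720 took 4.16% of all counts. Another 143 of the 720 had 3 counts or fewer, against 5236 of all 21718 protein-coding genes. Counts of 3 or fewer were also found for 58 of 268 ligands, 2 of 50 antagonists, 16 of 236 receptors and 15 of 217 matrix genes. The list holds DNA-binding families such as homeobox, forkhead, helix-loop-helix and nuclear receptor genes and leaves out KRAB zinc fingers. Its 10 highest members were Creb5, Msx1, Prrx1, Barx1, Pitx1, Egr1, Fos, Twist1, Nfib and Osr2. Only 4 of them, Creb5, Prrx1, Pitx1 and Nfib, remained among the 10 with the median transcript length, and 5, Creb5, Msx1, Prrx1, Egr1 and Nfib, with CPM and no length. Creb5, a leucine-zipper factor of the CREB family, had 40218 and 40074 counts (327 CPM per kb). Its longest transcript gives Creb5 1.34 times the level of Msx1, but the median length gives 4.02 and the union of exons turns it to 0.68, so the first place is not fixed by these data. In CPM, Creb5 stood at 2592 here, at 2684 and 3787 in the SB431542 and E13.5 libraries of the same kit and at 1263 in the SIS3 libraries, which were made with the TruSeq kit v2. Kit and SIS3 cannot be told apart in that last value. Pitx1, a homeobox gene of the lower jaw and hindlimb, stood at 179 and 177 CPM per kb. Egr1 and Fos, which growth factor signalling and handling induce within minutes in many cells, both stood at 127 CPM per kb and cannot be ordered within their counting intervals. Nfib, a nuclear factor I gene, stood at 120 CPM per kb, within the counting interval of Twist1.

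Families of factors differed in how their level was spread over members. Runx genes were dominated by Runx2, which gave 78.2% of their summed level. Lhx8 gave 56.5% of the sum of the 8 Lhx genes and Lhx6 most of the rest, with Lhx8 only 1.31 times as high per kb. Forkhead genes were spread, and the highest, Foxf1, gave 15.2% of the sum. Of 44 forkhead genes 24 reached 1 CPM, a share below the 64.7% of all protein-coding genes. All 4 nuclear factor I genes and all 4 Tcf/Lef genes, which carry the Wnt response, reached 1 CPM, with summed levels of 279 and 171 CPM per kb. All 21 genes of the stress and immediate-early list also reached 1 CPM, against the same 64.7%. Among them Hspa5, an endoplasmic reticulum chaperone, and Hsp90aa1, a cytosolic chaperone that shares most of its sequence with other genes, each stood at 153 CPM per kb, Jund at 94.3 CPM per kb, Jun at 83.9 CPM per kb and Atf4, a factor of the amino acid response, at 81.9 CPM per kb. The heat-shock genes Hspa1a and Hspa1b were low, at 1.65 and 2.44 CPM per kb, and share most of their sequence with each other. No uncultured germ was analysed here, so the part of dissection and culture in these levels was not tested.

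Genes that record position in the jaw stood at very unequal levels. Barx1, at 206 CPM per kb, marks the proximal, molar-forming mesenchyme, whereas Isl1, of the distal, incisor-forming side, had only 7 counts. Pitx1, a lower-jaw gene, stood 30.4 times as high per kb as Pou3f3, an upper-jaw gene with 639 and 706 counts (5.86 CPM per kb), or 48.1 times with the median transcript length. Pou3f3 was nevertheless well above the floor, and the labels do not say whether upper or lower molars were taken. Dlx5 and Dlx6, which pattern the lower jaw, stood at 49.4 and 15.6 CPM per kb, and Dlx1 and Dlx2, which both jaws use, at 27.8 and 52.6 CPM per kb. Hand2, a gene of the distal lower jaw, was at 4.06 CPM per kb. Hand1, of its tip, had 0 counts, where 3 counts stand for 0.0969 CPM. Hox genes, which the first branchial arch does not use, were nearly absent. Of 39, 33 had 3 counts or fewer, against 5236 of all 21718 protein-coding genes. Only Hoxd8 reached 1 CPM, with 40 and 38 counts.

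Ligands took 0.931% of all counts, and 155 of 268 reached 1 CPM, a share of 57.8% that lies below the 64.7% of all protein-coding genes. The 3 highest were secreted growth factors, and Bmp4 was among the 10 highest. Igf2, a fetal growth factor, had 38530 and 37196 counts (518 CPM per kb), and 76.0% of its short sequence words are shared with other genes, so its level is uncertain. Mdk and Ptn, the heparin-binding pair midkine and pleiotrophin, stood at 259 and 225 CPM per kb. Below a wide gap came Sema5a at 55.5 CPM per kb, Igf1 at 46.9 CPM per kb, Slit3 at 43.9 CPM per kb and Sema6a at 43.8 CPM per kb. Efnb2, a transmembrane ephrin, stood at 41.6 CPM per kb, Bmp4 at 39.1 CPM per kb and the axon repellent Sema3a at 38.0 CPM per kb. Slit3 and Sema6a overlap in their counting intervals, as do Bmp4 and Sema3a, and without column 1 Slit2 takes the place of Sema3a.

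Within the BMP family Bmp4 was the leading ligand, at 3.84 times Bmp2 per kb (interval 3.57 to 4.12), 12.6 times Bmp7 and 13.9 times Bmp5. Bmp2, which is epithelial in the early tooth, stood at 10.1 and 10.3 CPM per kb. The activin and TGF-beta ligands were led by Tgfb3 at 35.7 CPM per kb, with Inhba at 23.3 CPM per kb, Tgfb2 at 22.4 CPM per kb and Tgfb1 at 14.7 CPM per kb. Of 22 FGF genes 11 reached 1 CPM, against 64.7% of all protein-coding genes, and Fgf18 led at 23.3 CPM per kb. Wnt5a, a non-canonical Wnt of mesenchyme, gave 44.3% of the summed level of 19 Wnt genes. Shh, the Hedgehog ligand of the dental epithelium, had 4 and 2 counts, and the 3 Hedgehog ligands summed to 0.676 CPM per kb.

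Secreted antagonists and modulators were the role with the largest share expressed: 45 of 50 (90%) reached 1 CPM, against 64.7% of all protein-coding genes. Sfrp2 and Frzb, which bind Wnt proteins, stood at 287 and 95.4 CPM per kb, and Sfrp1 at 51.5 CPM per kb. Insulin-like growth factor binding proteins filled 4 of the 10 highest places: Igfbp4 at 235 CPM per kb, Igfbp2 at 95.9 CPM per kb, Igfbp5 at 95.5 CPM per kb and Igfbp3 at 91.1 CPM per kb. Igfbp2, Igfbp5 and Frzb overlap in their counting intervals and cannot be ordered. Fstl1, a secreted follistatin-like glycoprotein, stood at 208 CPM per kb, Smoc2, a matricellular protein, at 75.0 CPM per kb and Bmp1, the protease that trims procollagens, at 74.9 CPM per kb. The BMP antagonist Sostdc1, which limits tooth number in the mouse, stood at 34.2 and 35.5 CPM per kb. Noggin, a further BMP antagonist, was lower: Nog had 94 and 86 counts (3.43 CPM per kb). Follistatin, the activin antagonist encoded by Fst, stood at 12.6 CPM per kb, below its target Inhba. Dkk4, a Wnt antagonist of the enamel knot, had 1 and 4 counts.

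**Figure D2:**
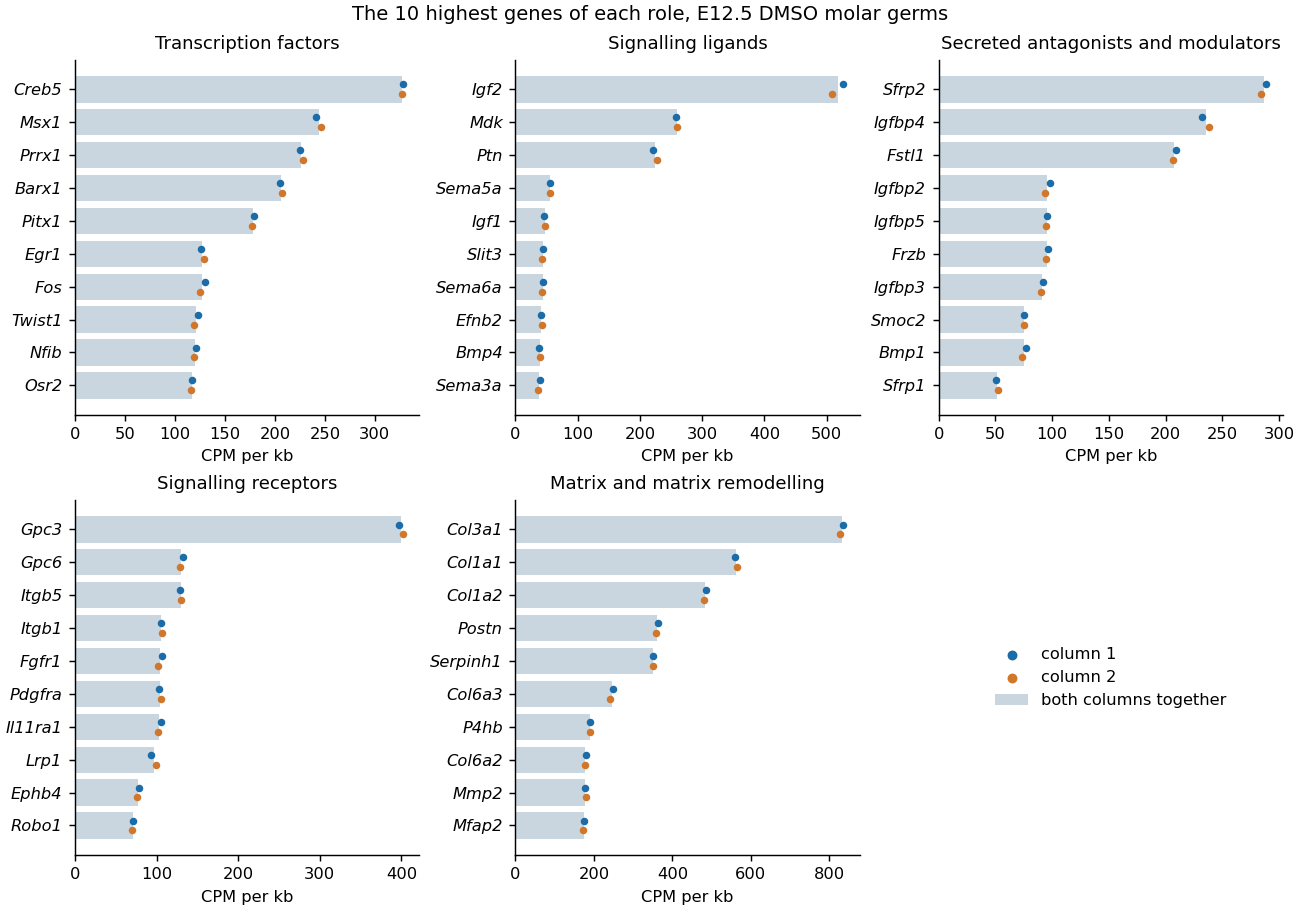
The 10 highest genes of each of the 5 roles in CPM per kb of transcript, with bars from 0 for both columns together and points for each column. In each role the first gene leads, from 287 CPM per kb for Sfrp2 to 831 CPM per kb for Col3a1, and the points of the 2 columns lie close to the bar ends.

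Receptors took 2.19% of all counts, and 192 of 236 (81.4%) reached 1 CPM, against 64.7% of all protein-coding genes. The highest was Gpc3, a glypican that holds growth factors at the cell surface, with 397 and 402 CPM per kb, followed by Gpc6 at 130 CPM per kb. The integrin subunits Itgb5 and Itgb1, which bind matrix, stood at 129 and 106 CPM per kb. Fgfr1 stood at 104 CPM per kb and Pdgfra, the PDGF receptor of neural crest mesenchyme, at 104 CPM per kb, and their intervals overlap. Per kb, Fgfr1 was 2.31 times as high as Fgfr2, which is prominent in epithelium. The ratio was 2.55 and 2.10 in the 2 columns, and 1.64 with the median transcript length. Il11ra1 stood at 103 CPM per kb but shares 56.7% of its sequence words with other genes and is uncertain. Lrp1, a large endocytic receptor, stood at 96.2 CPM per kb, Ephb4, an ephrin receptor, at 76.9 CPM per kb and Robo1, the Slit receptor, at 70.8 CPM per kb.

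Receptors of the BMP and activin pathways were expressed at unequal levels. All 4 BMP receptor genes and 6 of 7 TGF-beta and activin receptor genes reached 1 CPM, against 64.7% of all protein-coding genes. Bmpr1a, a type I BMP receptor, stood at 40.5 CPM per kb and was 48.3 times as high per kb as Bmpr1b, which had 139 counts, or 126 times with the median transcript length. Tgfbr1, the type I receptor for TGF-beta that SB431542 blocks, stood at 31.5 CPM per kb and led its family of 7. All 8 Smad genes, whose proteins carry these signals to the nucleus, reached 1 CPM. The common partner Smad4 was highest at 45.7 CPM per kb, and the BMP-activated Smad5 and Smad1 stood at 36.3 and 21.3 CPM per kb. Smad3 and Smad2, which TGF-beta and activin activate and of which SIS3 is meant to block the former, stood at 25.3 and 15.4 CPM per kb. Smad9 was lowest at 6.97 CPM per kb.

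Genes known as outputs of each pathway were expressed throughout. The counts at 1 CPM below stand against 64.7% of all protein-coding genes. All 18 of the BMP-Smad output list reached 1 CPM, among them Id3, Id2 and Id1, inhibitors of helix-loop-helix factors, at 74.9, 69.5 and 56.9 CPM per kb, and the inhibitory Smad7 and Smad6 at 28.2 and 17.2 CPM per kb. All 15 of the TGF-beta and activin list did too, led by Postn at 361 CPM per kb and Fn1 at 141 CPM per kb, both matrix genes, and by Ski, a feedback repressor, at 59.9 CPM per kb. All 17 Wnt outputs reached 1 CPM, with Lef1 and Tcf7l1, which bind beta-catenin, at 56.3 and 53.5 CPM per kb and Axin2, the feedback inhibitor, at 46.5 CPM per kb. All 13 FGF-ERK outputs did so, with the feedback genes Dusp6 and Spry1 at 53.9 and 36.8 CPM per kb. These lists were not chosen to be silent in other tissues, so their counts are levels and not measures of signalling.

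The Hedgehog pathway had the widest gap between ligand and receptor. Its 3 receptor genes, led by Smo and Ptch1, summed to 101 CPM per kb, while the ligands summed to 0.676 CPM per kb, of which Ihh gave 83.2%. Ptch1 and Gli1, both targets of the pathway as well as its parts, had 43.9 and 44.4 CPM per kb and 22.6 and 22.5 CPM per kb in the 2 columns. Ptch1 was 649 times as high as Shh per kb, with a counting interval of 298 to 1768 from the 6 counts of Shh, and 4463 times with the median transcript length. Gli3, the main repressor of the Gli factors, was 2.70 times as high as Gli1, and Gas1, a co-receptor, stood at 68.5 CPM per kb. All 13 genes of the Hedgehog output list reached 1 CPM, against 64.7% of all protein-coding genes. Endothelin had a smaller gap of the same kind: the receptor Ednra of neural crest mesenchyme stood at 38.8 CPM per kb, and the 3 ligand genes summed to 4.51 CPM per kb. Wnt receptors summed to 355 CPM per kb and their ligands to 62.1 CPM per kb. In the IGF family the ligands were higher, at 565 against 115 CPM per kb, with the reserve on Igf2 given above. BMP ligands and receptors (103 and 90.9 CPM per kb) and TGF-beta and activin ligands and receptors (99.9 and 86.3 CPM per kb) were close. The families hold unequal numbers of genes and were drawn up after the levels had been seen.

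**Figure D3:**
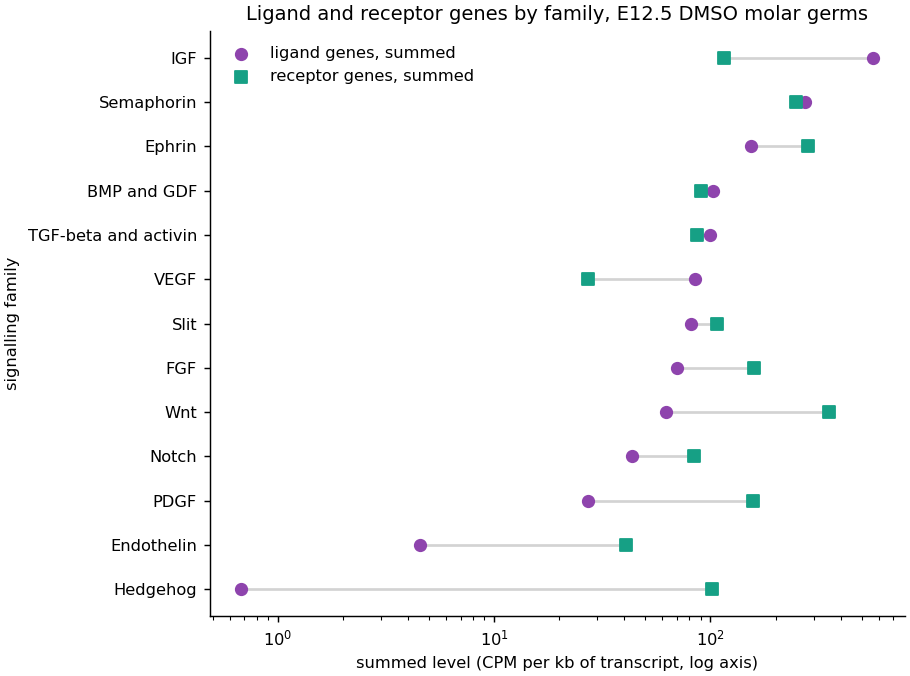
Summed level of the ligand genes (circles) and the receptor genes (squares) of 13 signalling families in CPM per kb of transcript on a log axis, both columns together. The 2 marks of the Hedgehog family lie farthest apart (0.676 and 101 CPM per kb), and those of the BMP and semaphorin families nearly meet.

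Matrix genes took 4.21% of all counts, about as much as the transcription factors. Of 217, 188 (86.6%) reached 1 CPM, against 64.7% of all protein-coding genes. Interstitial collagens led. Col3a1 stood at 836 and 827 CPM per kb, Col1a1 at 561 and 564 CPM per kb and Col1a2 at 486 and 482 CPM per kb. Col3a1 was 1.48 times as high as Col1a1 with the longest transcripts but 11.2 times with the median transcript length and 0.928 times with the union of exons, and Col1a1 was 1.16 times Col1a2 but 0.673 times with the median length, so the order of the 3 is not fixed by these data. The 11 fibrillar collagen genes all reached 1 CPM and summed to 2292 CPM per kb. Postn, the matricellular protein periostin of dental follicle and ligament, stood at 361 CPM per kb. Serpinh1 and P4hb, which fold collagen in the endoplasmic reticulum, stood at 350 and 190 CPM per kb, and all 18 genes of collagen folding and crosslinking reached 1 CPM. Col6a3 and Col6a2, of the beaded-filament collagen VI, stood at 246 and 178 CPM per kb. Mmp2, a gelatinase, stood at 178 CPM per kb and Mfap2, of the fibrillin microfibrils, at 174 CPM per kb. Fbn2, the fibrillin typical of embryos, was 2.45 times as high as Fbn1, and Vcan, a large proteoglycan of embryonic mesenchyme, gave 97.1% of the summed level of its family of 8. Basement membrane genes were present as well: Lamb1, a laminin chain, stood at 90.8 CPM per kb and Col4a1 at 88.0 CPM per kb.

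By the median of its markers, mesenchyme stood above every other cell type list, although globin genes gave the erythroid list the largest summed level (1734 against 1493 CPM per kb for dental mesenchyme). In bulk RNA, fewer cells of a type and less RNA per cell cannot be told apart, so the lists below order levels and not cell numbers. The neural crest mesenchyme list had 18 of 19 genes at 1 CPM, against 64.7% of all protein-coding genes. Its median was 31.04 CPM per kb, with Pdgfra and Six2 (80.9 CPM per kb) behind Prrx1 and Twist1. Dental and neural crest mesenchyme kept the first and second place among 18 lists under each transcript length tried and without either column. The 2 lists share genes such as Prrx1 and Twist1, and the lists were chosen with earlier results of these data known. Over the 15 and 12 members that stand in no other cell type list, the medians were 39.1 and 27.7 CPM per kb.

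Epithelium was detected at a low level. Of 33 dental and oral epithelium genes 29 reached 1 CPM, against 64.7% of all protein-coding genes. Their median, however, was 2.04 CPM per kb, below the 2.55 CPM per kb of all protein-coding genes. The basal keratins led: Krt15 at 27.2 and 25.9 CPM per kb, Krt14 at 19.1 and 20.2 CPM per kb and Krt5 at 13.7 and 13.9 CPM per kb. Prrx1 was 11.5 times as high per kb as Krt14, or 7.04 times with the union of exons. The adhesion gene Cdh1 stood at 3.35 CPM per kb and the basal-layer factor Trp63 at 3.10 CPM per kb. Keratins of surface layers were lower still, with a list median of 0.618 CPM per kb. Of these Krt17 stood at 10.5 CPM per kb, Krt6a, which shares sequence with other keratins, at 4.05 CPM per kb and Sbsn at 1.57 CPM per kb, while Ivl and Lor, of cornified layers, had 1 and 3 counts.

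The enamel knot list gave its level through genes that other tissues use. Lef1, at 56.3 CPM per kb, is mesenchymal as well at this stage, and Bmp2 and Cdkn1a stood at 10.2 and 6.26 CPM per kb. The signals that define the knot were near the floor: Shh had 6 counts, Fgf4 had 9, Fgf20 had 5 and Dkk4 had 5 over both columns. Fgf9, an epithelial FGF, had 39 and 55 counts. The list median was 0.854 CPM per kb.

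Blood vessels, blood cells and muscle were all represented. In the endothelium list 21 of 22 genes reached 1 CPM, against 64.7% of all protein-coding genes. Cdh5, the junction protein of endothelial cells, stood at 29.2 and 33.2 CPM per kb. Kdr, the VEGF receptor, stood at 17.9 CPM per kb and Egfl7 at 16.8 CPM per kb. Prrx1 was 7.25 times as high per kb as Cdh5, or 4.5 times with the union of exons. Lyve1, a marker of lymphatic endothelium and macrophages, had 1 count. Pericytes shared Pdgfrb (53.6 CPM per kb) with mesenchyme, and Notch3 stood at 20.3 CPM per kb. Rgs5, which is more specific, stood at 16.5 CPM per kb, and Higd1b, Vtn and Ndufa4l2 had 1 to 4 counts. Of contractile genes Acta2 stood at 33.0 CPM per kb, Smtn at 18.4 CPM per kb and Tagln at 11.0 CPM per kb, but Myh11 and Cnn1 of mature smooth muscle had 51 and 20 counts.

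Globin genes included the highest of all cell type markers. Hba-a2 stood at 742 CPM per kb but shares most of its sequence with Hba-a1, so the 2 cannot be separated. Hbb-y, the embryonic epsilon-like globin of primitive red cells, stood at 553 and 557 CPM per kb, 4.71 times the adult-type Hbb-bs (118 CPM per kb), which shares most of its sequence with its neighbour Hbb-bt and is uncertain. Hba-x, the embryonic zeta globin, stood at 74.1 CPM per kb. Transcription factors of red cell precursors were low: Klf1 had 13 and 16 counts and Gata1 had 3 counts in all. Macrophage genes were present with a median of 3.04 CPM per kb, among them Cd68 at 6.30 CPM per kb, Lyz2 at 6.92 CPM per kb and the complement genes C1qa, C1qb and C1qc at 4.13 to 5.29 CPM per kb. The highest gene of that list, Kit (8.18 CPM per kb), is also a melanocyte and mast cell gene. The T-cell gene Cd3e had 0 counts.

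Of 24 skeletal muscle genes 20 reached 1 CPM, against 64.7% of all protein-coding genes. Actc1, the actin of embryonic muscle, and Tnnt1 led at 36.5 and 14.7 CPM per kb. Myog, which drives muscle differentiation, stood at 12.8 CPM per kb, and Myod1, which commits cells to it, at 4.15 CPM per kb. Myh3, the embryonic myosin, stood at 11.6 CPM per kb, Pax7, of muscle progenitors, at 0.612 CPM per kb, and Ckm, of mature fibres, had 1 count. The titin gene, whose transcripts are very long, is among those whose columns differ beyond counting error.

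Bone genes were high in the osteoblast list, with 14 of 17 at 1 CPM and a median of 9.58 CPM per kb. Over all protein-coding genes the share at 1 CPM was 64.7% and the median 2.55 CPM per kb. Beside Col1a1 and Runx2, which mesenchyme also uses, Alpl, a phosphatase of mineralising tissue, stood at 47.6 and 48.9 CPM per kb. Sp7, the osteoblast factor osterix, had 1029 and 2102 counts, so its level lay between 21.5 and 43.8 CPM per kb by column. Ibsp, a bone matrix glycoprotein, was more even at 30.8 and 31.8 CPM per kb. Dmp1, of osteocytes and odontoblasts, had 122 counts and the osteocyte gene Sost had 1. Cartilage genes stood lower, with 14 of 19 (73.7%) at 1 CPM and a median of 2.45 CPM per kb, just below that of all genes. Col11a1 and Col2a1, collagens of cartilage, reached 54.2 and 39.7 CPM per kb and Sox9, which starts cartilage formation, 20.3 CPM per kb. Col10a1, of hypertrophic cartilage, had 2 counts.

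Nerve and pigment cell genes were detected at low levels, with medians of 0.673, 0.594 and 2.04 CPM per kb for neurons, Schwann cells and melanocytes. Map2, Nefl and Tubb3, of the neuronal cytoskeleton, stood at 9.81, 7.64 and 4.25 CPM per kb, but the neuronal factor Neurod1 had 0 counts. Ngfr, which mesenchyme and nerve share, led the Schwann list at 16.7 CPM per kb, followed by Egr2 (8.72 CPM per kb) and Erbb3 (2.76 CPM per kb), while the defining factor Sox10 had 26 and 27 counts. Mitf, the pigment cell factor, stood at 2.83 CPM per kb, Dct and Tyr, enzymes of melanin synthesis, at 2.40 and 2.04 CPM per kb, and Mlana had 0 counts. Most genes of finished dentin and enamel were at or near the floor. Of 9, 6 had 3 counts or fewer, against 5236 of all 21718 protein-coding genes: Dspp had 2 counts and Amelx, Amtn and Mmp20 had 0. Ambn, an enamel matrix gene, and Dmp1 were the members at 1 CPM, and Ambn had 191 and 195 counts (6.72 CPM per kb). Genes of organs absent from the jaw, such as liver, lung, pancreas and retina, served as a background. Of 26, 3 reached 1 CPM, against 64.7% of all protein-coding genes. The median was 0.021 CPM per kb, against 0.053 CPM per kb for the dentin and enamel list. The 3 genes at 1 CPM were the germ cell gene Nanos3, the liver gene Alb and the retinal gene Crx, with 66, 52 and 68 counts.

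**Figure D4:**
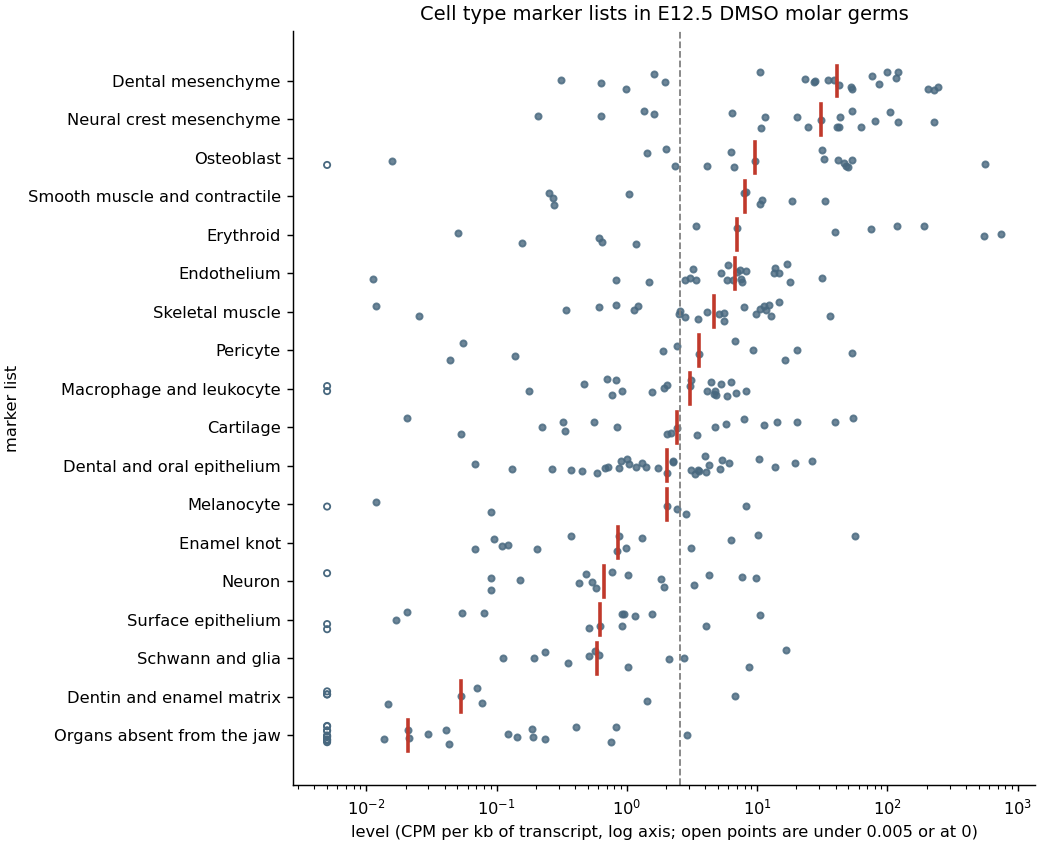
Level of every member of 18 marker lists in CPM per kb of transcript on a log axis, both columns together, with red bars at the list medians, open points for genes under 0.005 CPM per kb or at 0, and a dashed line at the median of all protein-coding genes (2.55 CPM per kb). Dental and neural crest mesenchyme lie highest (medians 40.9 and 31.04 CPM per kb), and the lists of dentin and enamel and of organs absent from the jaw lie lowest.

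Genes of dividing cells were well expressed. Of 30 cell cycle genes 29 reached 1 CPM, with a median of 24.2 CPM per kb. Over all protein-coding genes the share was 64.7% and the median 2.55 CPM per kb. Pcna, the replication clamp, stood at 70.9 CPM per kb, Top2a, the topoisomerase of dividing cells, at 64.4 CPM per kb, Mki67 at 42.3 CPM per kb, and the replication helicase genes Mcm2 to Mcm7 at 39.1 to 62.4 CPM per kb. Cdkn1c, the cell cycle inhibitor p57, was far above these genes with 14725 and 15267 counts (509 CPM per kb), 35.1 times Cdkn1b. Cdkn2a, the senescence-linked inhibitor, had 1 count.

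Most of the 15 highest protein-coding genes per kb in the whole library were mitochondrial, ribosomal and translation genes. The mitochondrially encoded genes mt-Atp8, mt-Atp6, mt-Co3, mt-Nd1, mt-Co2, mt-Cytb and mt-Co1, the ribosomal genes Rplp1 and Rpl23a, the elongation factor Eef1a1 and the actin gene Actb are all among the 15 highest per kb. The 13 mitochondrial genes took 1.31% of the counts and the ribosomal proteins 3.95%, and many of these genes share sequence with pseudogenes. Gm20594 was first at 12498 CPM per kb, and Lars2, a mitochondrial leucyl-tRNA synthetase, and Ccnb1ip1 stood at 3265 and 1364 CPM per kb. Lars2 took 12712 CPM here, 13979 and 34115 CPM in the SB431542 and E13.5 libraries of the same kit and 84.9 CPM in the TruSeq libraries of the SIS3 germs. Tmem38b, at place 27, took 2538 CPM here and 18.2 CPM in the SIS3 libraries. Library kit and SIS3 treatment cannot be told apart in that contrast, and these levels are given as deposited. Histone genes, whose main transcripts carry no poly(A) tail, reached 1 CPM in 62 of 69 cases, against 64.7% of all protein-coding genes. They took 1.07% of the counts.

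Promoter composition differed with the level of expression. A window was called CpG-rich when its CG pairs reached 0.6 of the number its base content predicts and its GC share 50%. In all, 14821 genes had a RefSeq start within 500 bases of the start of their longest protein-coding transcript. Of these 47.0% were CpG-rich: 63.3% of genes at or above 1 CPM and 11.2% of genes below it. With the genes at or above 1 CPM divided by level into 10 groups of equal size, the share rose from 32.8% in the lowest to 79.5% in group 9 and stood at 71.7% in the highest. TATAAA at 40 to 20 bases before the start, searched on the gene's strand, was found in 3.03% of all windows, in 1.23% of genes at or above 1 CPM and in 6.96% of genes below it. Among expressed genes it was most frequent at the ends, with 2.26% in the lowest group and 2.95% in the highest, to which Fos and Postn belong.

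The roles differed in the same measure. Of 465 transcription factors with a window 64.5% were CpG-rich, as in Msx1 and Twist1, against 34.7% of 150 matrix genes and 34.6% of 188 ligands. All 10 windows of the BMP-Smad output list and all 5 of the Smad genes were CpG-rich. None of the 10 erythroid, 16 skeletal muscle or 9 surface epithelium windows was CpG-rich, and 5 of the last held TATAAA. Ligands had TATAAA in 11.7% of windows, with 19.8% of those under 1 CPM and 5.61% of those at or above it, where matrix genes had 4.72%. A match describes letters in a window and not a site that is in use.

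**Figure D5:**
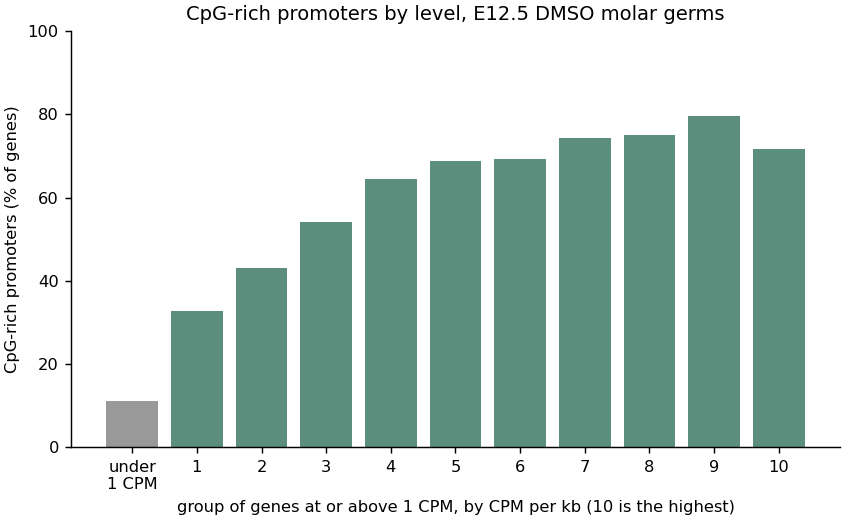
Share of genes with a CpG-rich promoter window, in percent, for genes under 1 CPM (grey) and for 10 equal groups of the genes at or above 1 CPM ordered by CPM per kb (green). The share is 11.2% under 1 CPM, 32.8% in the lowest group, 79.5% in group 9 and 71.7% in the highest.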

How the data were processed

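The 2 E12.5 DMSO columns of a table of 8 columns and 35896 genes were used. Their values are estimated counts per gene, deposited by the authors as whole numbers without scaling. Per the submitters' processing notes, which state no roles or versions, the tools included Salmon, with HISAT2, SAMtools, deepTools and DESeq2, and the genome was mm10. The sources used here do not name the annotation. The columns were compared over genes with 20 or more counts, then summed. CPM used the total of all genes, and CPM per kb the longest protein-coding transcript in GENCODE M21 (GRCm38). Estimated counts of genes that share 31-base words with other genes depend on how reads were divided. Intervals (95%, exact Poisson for levels) cover counting error only, as no molecular identifiers are described. The comparison of columns was checked on simulated data. Promoter windows come from RefSeq (GRCm38.p6), where 16722 genes matched. Python 3.11.15, pandas 2.3.3, numpy 2.4.6 and scipy 1.17.1 were used.

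The members and gene lists were chosen with earlier results of these data known. By rule the text names the 5 markers, the 10 highest genes per kb of 5 role lists, the 3 highest and the defining members of the other lists, the 15 highest genes of the library and genes at 3 counts or fewer. A few genes under this rule are not reported here. Further genes, the families, the pairs behind the ratios and the promoters shown were chosen after their values were seen. Alternatives changed the CPM threshold, the denominator, the transcript length and the column left out.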

Additional observations from a re-analysis of the deposited data

How the results depend on the processing

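Which genes are the 10 highest depends on the length used. With the median transcript length, 4 of the 10 transcription factors, 6 of the 10 ligands, 6 of the 10 receptors and 6 of the 10 matrix genes were retained. With CPM and no length, 5 transcription factors and 5 matrix genes were. Msx1, Barx1, Fos, Egr1, Twist1 and Osr2 are the factors that the median length leaves out, and by construction only the length differs there. Leaving out a column kept 10 of 10 genes in every role except the ligands, with 9 to 10. Counts of genes at 1 CPM stayed within 1.5 times under both denominators. At 5 CPM the lists that fell by more than 1.5 times were dental and oral epithelium (to 16 genes), macrophage (11), neuron (5), enamel knot (4), Schwann (4), surface epithelium (2), dentin and enamel (1), organs absent from the jaw (0) and Hox (0), and at 0.5 CPM the last 2 rose to 5 and 2. List medians moved by at most 1.53 times upward, and the lowest was 0.275 of its main value, in the dentin and enamel list. No paired analysis was possible because the results come from no test. The depth of 30975010 counts leaves 0.0969 CPM as the smallest level that 3 counts allow, and 1 library gives no spread between germs.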

Other observations

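Imprinted genes are expressed only or mainly from the maternal or the paternal copy in at least some tissues, and many regulate fetal growth. The parental copy behind the levels below was not measured. A list of 16 of them was written after the levels were seen, so its levels are a description of these genes and not of the class. All 16 reached 1 CPM, against 64.7% of all protein-coding genes, and the median was 70.7 CPM per kb. After Igf2 and Cdkn1c came Mest at 401 and 397 CPM per kb in the 2 columns, Grb10, an adaptor that restrains insulin signalling, at 301 and 300 CPM per kb, and Gnas, which encodes a G-protein subunit, at 273 and 272 CPM per kb. The zinc finger gene Peg3 stood at 200 CPM per kb and Dlk1, a non-canonical Notch ligand of growing tissues, at 75.8 CPM per kb. Igf2r, which clears Igf2 from the cell surface, stood at 65.6 CPM per kb. Phlda2, a growth-limiting gene of the placenta, was low with 38 counts (1.62 CPM per kb).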
